A study of Homo sapiens with 8 samples.

Results

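MIR33A and MIR26B are microRNA genes that lie inside protein-coding genes and are read from the same strand as their hosts. They were chosen as the features of the arrays that carry either symbol, 2 of 207 features in all and 2 of the 67 that carry a gene symbol. They were chosen by their mean signal, which stood above that of markers of foreign tissues, and by their signal on day 22. Those levels are therefore a description here, and the tests below leave day 22 out.

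The cells were K562, an established human myeloid leukaemia line whose blasts can move towards the red cell, granulocyte or monocyte lineage. Day 0 cells were not stimulated. The other cultures were induced in serum-free StemLineII medium containing erythropoietin at 7.5 U/ml and interleukin 3 at 50 ng/ml, to which the line had first been adapted, and were harvested every 2 days up to day 10, on day 15 and on day 22. Each harvest gave 1 array of Cy3-labelled small RNA without a replicate, and whether harvests came from separate cultures is not stated. K562 is 1 line, and the labels do not describe the medium of the day 0 cells. In all 621 rows the day 15 value is the average of those of days 10 and 22 (within 0.01 units), so 7 arrays are described. Of 6 microRNAs that would mark red cell, blood or granulocyte identity, 0 are among the named features, so the labelled cell type could not be checked against them.

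A microRNA is cut from a hairpin transcript and guides repression of messenger RNAs that match bases 2 to 8 of its mature strand, the seed. MIR33A is carried by an intron of SREBF2, the gene of the sterol-regulated transcription factor SREBP2, and its product is known for repressing the cholesterol exporter ABCA1. MIR26B is carried by an intron of CTDSP1, a phosphatase gene of a small family whose members each host a miR-26 gene, and miR-26 is known for repressing EZH2 and for roles in the cell cycle and in fat cell differentiation. In both cases the microRNA and its host share a transcript, but the arrays measured no host messenger RNA.

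The hairpins are shown because the files name the gene and not the arm that each probe reads. Both mature arms are in capitals, and the sequences are RefSeq's, build GRCh38.p14. MIR33A lies at chr22:41900944-41901012 (plus strand, within SREBF2) and MIR26B at chr2:218402646-218402722 (plus strand, within CTDSP1).
MIR33A hairpin: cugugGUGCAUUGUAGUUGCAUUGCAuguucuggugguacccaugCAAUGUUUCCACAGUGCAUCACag
MIR26B hairpin: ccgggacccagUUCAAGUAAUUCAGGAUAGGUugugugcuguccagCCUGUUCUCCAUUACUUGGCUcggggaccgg

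The 5′ arms are set beside those of their closest relatives, with the seed in capitals, because relatives this alike could bind the same probe.
hsa-miR-33a-5p: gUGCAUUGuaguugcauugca
hsa-miR-33b-5p: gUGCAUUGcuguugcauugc
hsa-miR-26b-5p: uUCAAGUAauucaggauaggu
hsa-miR-26a-5p: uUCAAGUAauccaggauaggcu

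The seed UGCAUUG is held by 2 mature microRNAs of the RefSeq table, miR-33a-5p and miR-33b-5p. They are identical at 18 of 20 compared positions and differ by U9C and A10U, counted from 1 at the 5′ end. MIR33B sits in SREBF1, the sister gene of SREBF2. The seed UCAAGUA is held by 4, namely miR-26a-5p, miR-26b-5p, miR-1297 and miR-4465. miR-26b-5p and miR-26a-5p are identical at 19 of 21 positions and differ by U11C and U21C, and no difference in either pair lies in the seed. Between the 2 members the 5′ arms are identical at 7 of 21 positions and their seeds differ at 4. MIR33A and MIR26B are the only named features that hold these seeds, since MIR33B, MIR26A1 and MIR26A2 have no named feature. The probe sequences were not used here, so whether the probes separate these relatives was not tested.

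MIR33A was bright on every array. Its signal above the dimmest spot of the array was 686 ± 36.4, 1406 ± 91.4, 1022 ± 60.2, 461 ± 17.6, 262 ± 8.39, 342 ± 25.5 and 468 ± 15.4 units in turn for days 0, 2, 4, 6, 8, 10 and 22 (SD, n = 3 spots). It was highest on days 2 and 4 and lowest on day 8. The SD covers spotting and reading only, and ranged from 3.21% to 7.47% of the mean. MIR33A made up 1.11%, 1.86%, 0.943%, 0.900%, 0.944%, 1.31% and 2.81% of the summed signal of all features on days 0, 2, 4, 6, 8, 10 and 22. By that share, days 2 and 22 stood above the other arrays. Relative to the median feature of its array, MIR33A had 6.24 times the signal on day 0, 5.51 times on day 2 and 7.39 times on day 22. Day 2 was thus not above day 0 in that respect, so its high depended on the measure.

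MIR26B was dimmer and followed another course. Its signal above the dimmest spot was 404 ± 53.7, 250 ± 103, 403 ± 18.0, 212 ± 18.5, 101 ± 4.73, 141 ± 3.46 and 209 ± 18.5 units in turn for the same days (SD, n = 3 spots). Its share of the summed signal was 0.655%, 0.330%, 0.372%, 0.414%, 0.363%, 0.540% and 1.26% in the same order. By this share it was thus low on day 2, where MIR33A was high. Its 3 spots disagreed most on that array, at 226, 161 and 362 units, against 372, 374 and 466 on day 0, so the spots of these arrays did not overlap. In the deposited values, which have the array mean subtracted, MIR26B lay below 0 on days 2, 4, 6 and 8.

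**Figure D1:**
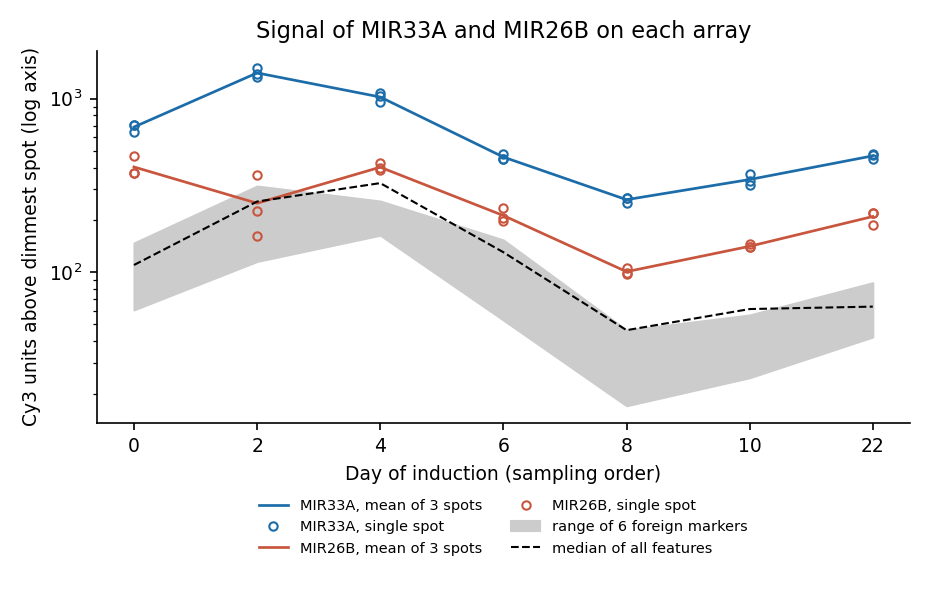
Cy3 units above the dimmest spot of each array (log axis) against the day of induction, with open circles for single spots and lines for the mean of 3 spots; the grey band is the range of 6 foreign markers and the dashed line the median of 207 features. MIR33A lies above the band on all 7 arrays, whereas MIR26B falls into it on day 2.

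The foreign markers show the signal of probes whose target is not known from these cells. Of 16 listed, 6 were measured: the embryonic MIR371A, MIR372, MIR373 and MIR367, the islet MIR375 and the epithelial MIR429. Probes differ in affinity, so such a distance is no measure of abundance. MIR33A had 3.0 to 6.04 times the signal of the brightest marker of its array. MIR26B had 2.74 times that signal before induction and 1.57, 1.38, 2.17, 2.49 and 2.41 times on the arrays of days 4, 6, 8, 10 and 22. On day 2 it had 0.796 times, with 250 units against 314 for MIR429, so on that array MIR26B is not shown to be above the level of the markers. No numeric limit was stated for the choice of the members. On day 22 MIR33A, the 2nd brightest of 207 features, lay at 468 units between an unnamed feature at 537 and MIRLET7I at 333. MIR26B, the 10th, lay at 209 between MIR328 at 232 and MIRLET7G at 207.

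Levels were then put on a common scale by normexp background correction, log2 and quantile normalization, which gives every array the same distribution. On this scale MIR33A stood at 9.27, 10.13, 8.90, 8.78, 8.46, 8.81 and 11.13 on days 0, 2, 4, 6, 8, 10 and 22. The order from high to low was day 22, 2, 0, 4, 10, 6 and 8, and the spots of neighbours in that order overlapped only between days 4 and 10 and between days 10 and 6. MIR26B stood at 8.71, 7.01, 7.37, 7.73, 7.77, 7.99 and 9.53 on the same days. Its order was day 22, 0, 10, 8, 6, 4 and 2, with overlapping spots between days 8 and 6 and between days 4 and 2. On this scale, from its lowest value on day 2 to day 22, each later array of MIR26B had a higher level than the one before.

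**Figure D2:**
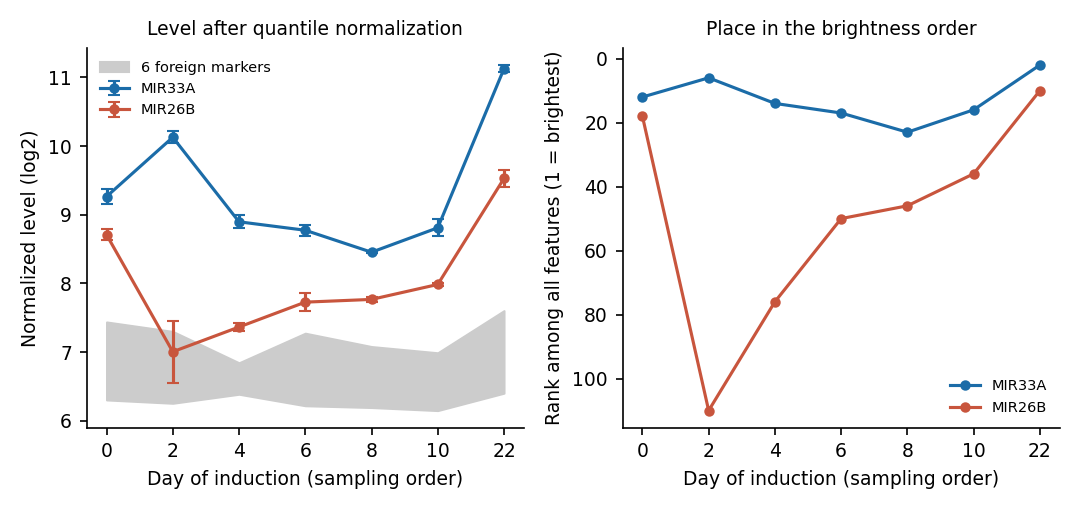
Left, quantile normalized log2 level (mean and SD of 3 spots) by day, with the range of 6 foreign markers in grey; right, rank of each member among 207 features by day (1 is the brightest, axis inverted). MIR26B goes from rank 18 on day 0 to 110 on day 2 and back to 36 on day 10, while MIR33A stays between 2 and 23.

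The place of each member in the brightness order of its array shows the same course. MIR33A ranked 12, 6, 14, 17, 23, 16 and 2 of 207 on days 0, 2, 4, 6, 8, 10 and 22. MIR26B ranked 18, 110, 76, 50, 46, 36 and 10. On day 2 MIR26B was thus near the middle of the array, at 0.978 times the signal of the median feature, against 3.67 times on day 0. Over days 0 to 10 the SD of the normalized level was 0.59 for MIR33A and 0.58 for MIR26B, against a median of 0.30 over all features. Both were among the more variable features, at places 19 and 21 of 207. This scale understates changes of dim features, and places among features of like brightness were not computed.

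Against day 0, MIR26B had the lowest difference of all 207 features on day 2, at -1.70 on the log2 scale, and it was the 3rd lowest on day 4 at -1.34. A difference of at least 1 downwards was reached by 1 member of 2, MIR26B, on each of these days, and by 5.8% and 1.93% of all features. Its differences were -0.98 on day 6, -0.94 on day 8 and -0.72 on day 10, which placed it 2nd, 5th and 7th from the lowest. On those days 0 members, and 0.483%, 1.93% and 0.966% of all features, were lower by at least 1. These are differences between single arrays, counted and not tested, and the day 2 difference is to a signal that is not shown to be above the foreign markers.

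MIR26B lay below its day 0 level on days 2, 4, 6, 8 and 10 under all 4 scalings that were run. On day 2 the difference was -1.08 without normalization, -1.84 with arrays centred on the median and -2.02 with arrays scaled to the 75th percentile. These scalings differ from one another only by a constant per array. The place of MIR26B, 6th lowest of 207 features, is therefore the same under each by construction. The median of all features on day 2 shifted by 0.54, -0.21 and -0.39 under these scalings, against 0.02 after quantile normalization. On day 4 the MIR26B difference was -0.22 without normalization, where the median feature was at 0.86.

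MIR33A was above day 0 on day 2 by 0.86, a difference of at least 1 upwards being reached by 3.38% of all features. The sign was the same under the other scalings, at 0.95 without normalization, 0.20 with median centring and 0.02 with the 75th percentile. The size of the difference thus depended on the scaling, and so did its place. It was the 12th highest of 207 after quantile normalization and the 68th under the other scalings, which all give the same order. On days 4, 6, 8 and 10 MIR33A was at -0.37, -0.49, -0.81 and -0.45 relative to day 0. On these 4 days 0 members, and 4.35%, 1.93%, 2.42% and 1.93% of all features, were higher by at least 1. Without normalization the day 4 difference was instead 0.47. On day 22 the differences from day 0 were 1.86 for MIR33A and 0.82 for MIR26B, and 8.21% of all features were higher and 12.1% lower by at least 1. Without normalization they were -0.56 and -0.94, and after median centring 0.26 and -0.12. The direction on day 22 thus depended on the scaling for both members, and that array was part of their choice.

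The ratio of the members within an array does not depend on any scaling between arrays, only on where each array's zero lies. With the dimmest spot as zero, the MIR33A to MIR26B signal ratio was 1.70 ± 0.14 on day 0 and 5.63 ± 1.35 on day 2, and then 2.54 ± 0.11, 2.17 ± 0.12, 2.60 ± 0.09, 2.43 ± 0.11 and 2.24 ± 0.12 for days 4, 6, 8, 10 and 22 (SE from 3 spots of each). The day 2 value is not a measured fold, because MIR26B lay below MIR429, the brightest foreign marker, on that array. With MIR26B taken instead at the mean signal of MIR429, the day 2 ratio is 4.48. That is not a lower limit, since ratios of single spots on day 2 ran from 3.68 to 9.37. Day 0 had the lowest ratio, and the highest ratio of single spots on the arrays other than day 2 was 2.77, on day 4. From day 4 to day 22 the ratio stayed between 2.17 and 2.60. Since a ratio shows unequal change only, it does not say which member moved.

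**Figure D3:**
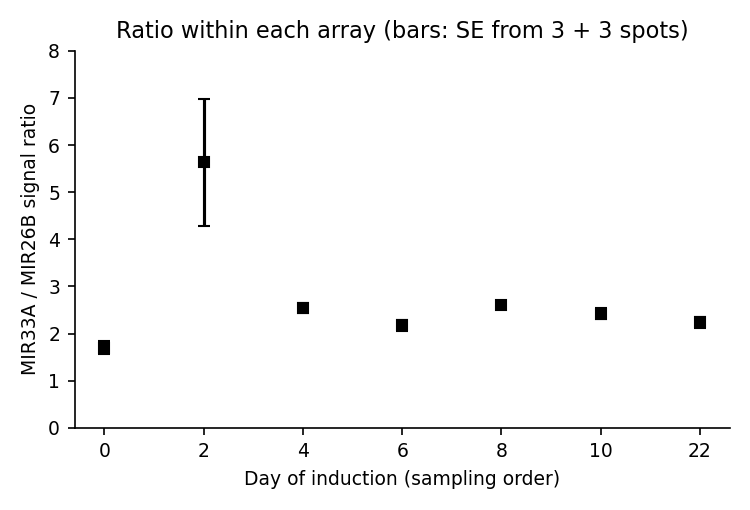
Ratio of MIR33A to MIR26B signal above the dimmest spot on each of 7 arrays, by day, with bars for the SE from 3 spots of each member. The ratio is 1.70 on day 0, 5.63 on day 2, where MIR26B lies below the brightest foreign marker, and between 2.17 and 2.60 on the 5 later arrays.

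Over days 0 to 10 the log2 ratio had a fitted change of -0.14 with the order of the arrays (two-sided exact permutation p = 0.878 over 720 orderings, n = 6 arrays). Without day 2 the fitted change was 0.50 (exact permutation p = 0.133 over 120 orderings), and without day 0 it was -1.20 (exact permutation p = 0.233). No steady drift of the ratio was thus detectable, and its direction rested on the day 2 array.

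A trend over days 0 to 10 was asked of all 207 features in limma, and 0 passed upwards and 0 downwards after Benjamini-Hochberg adjustment (0% each way), while 16 and 5 had an unadjusted p under 0.05. Without day 0, 5 passed upwards and 3 downwards. MIR33A had a fitted log2 change from day 0 to day 10 of -1.06 ± 0.45 (SE, n = 6 arrays, adjusted p = 0.425, limma). MIR26B had one of -0.14 ± 0.55 (SE, adjusted p = 0.960, limma). The median over all features was -0.04. The value of MIR33A was negative whichever array was left out and moved to -0.60 without day 2. It was -1.73 without normalization, -0.67 with median centring and -0.58 with 75th percentile scaling. That of MIR26B turned to 1.18 ± 0.33 without day 0 (adjusted p = 0.0854, limma with Benjamini-Hochberg). On the quantile normalized scale the fitted line of MIR26B thus joins a high day 0 to a climb from day 2 onwards. That climb starts at a level within the range of the foreign markers and depended on the scaling. Without normalization the differences from day 0 were -1.08, -0.22, -0.88, -1.55 and -1.27 on days 2, 4, 6, 8 and 10.

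Curvature asks whether the ends of days 0 to 10 lie above or below the middle. For MIR26B the fitted ends lay 0.93 ± 0.38 above the fitted midpoint on the log2 scale (SE, adjusted p = 0.531, limma with Benjamini-Hochberg, unadjusted p = 0.0297), and for MIR33A 0.12 ± 0.38 (adjusted p = 0.939, limma). Over all features 0 passed in either direction (0% each way) in limma, and 9 and 7 had an unadjusted p under 0.05 with ends above and below. The counts were 4 and 6 without day 10, 1 and 2 without day 8 and 1 and 1 without day 2. Without day 0 the value of MIR26B was -0.27, without day 10 it was 1.56, and without normalization between arrays it was 0.07 (unadjusted p = 0.902, limma). For MIR33A it was 1.33 without day 0, -0.03 without day 4 and -0.56 without day 10, so no curvature of a settled direction was seen.

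The arrays differ in how the spots of a feature behave. The number of the 30 brightest features whose last spot exceeded their first was 23, 29, 26 and 25 for days 0, 2, 4 and 6 but 7, 8 and 11 for days 8, 10 and 22. With a limma term for days 8 and 10, the trend of MIR33A was -1.07 ± 0.81 (SE, adjusted p = 0.770 after Benjamini-Hochberg) and that of MIR26B -1.08 ± 0.93 (adjusted p = 0.776). Within days 0 to 6, on 4 arrays, the limma slopes over the same 5 steps came to -1.35 ± 0.80 for MIR33A and -1.29 ± 0.80 for MIR26B (SE, adjusted p = 0.703 for each after Benjamini-Hochberg). Days 8 and 10 by themselves leave no residual spread for a test. The part of this split in the levels of the members was not tested beyond these fits.

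The profiles of the members were compared with those of the 66 other features with a symbol, by Pearson's r of the normalized log2 level over 7 arrays. Most like MIR33A were MIR449A (r = 0.97, Spearman's rho = 0.89), MIRLET7E (r = 0.95, rho = 0.82) and MIRLET7I (r = 0.94, rho = 0.82). Without day 22 their r was 0.93, 0.82 and 0.93 over 6 arrays. The order then changed, with MIRLET7E 5th and MIR342 3rd (r = 0.89, against 0.09 over 7 arrays). MIR449A stood at 7.86, 8.67, 7.82, 7.79, 7.74, 7.90 and 9.78 on days 0, 2, 4, 6, 8, 10 and 22, so it too was higher on days 2 and 22 than on the others. MIRLET7I was also highest on those days, at 9.0 and 10.83, against 8.34 on day 0.

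Most like MIR26B were MIR370 (r = 0.99, rho = 0.96), MIR374A (r = 0.93, rho = 0.86) and MIR376C (r = 0.90, rho = 0.86). Without day 22 their r was 0.98, 0.83 and 0.72. Without normalization between arrays it was 0.76, 0.78 and 0.71 over 7 arrays, so the closeness depended in part on the scaling. MIR376C had a mean level of 6.57, below the 7.11 of the foreign marker MIR373. By r without day 22 MIR376C was only 6th, and MIR23B was 3rd (r = 0.81, against -0.05 over 7 arrays). MIR370 stood at 7.84, 7.22, 7.22, 7.40, 7.42, 7.55 and 8.34 on the same days, a shallower course with the same low on days 2 and 4. Before normalization MIR370, MIR374A and MIR376C were instead higher on day 2, at 297, 225 and 128 units against 211, 176 and 77.7 on day 0. All of these day 2 signals lay below MIR429 at 314 units. Next in the order over 7 arrays was MIR373 (r = 0.88, rho = 0.86), which is 1 of the 6 foreign markers. Likeness to MIR26B is thus not limited to features with a signal above the markers. The arrays are shared by all profiles, and no test was made of these correlations. Between the members themselves r was 0.52 over 7 arrays and -0.35 without day 22, but 0.53 in both cases when the arrays were not normalized, so the negative sign depended on the scaling.

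**Figure D4:**
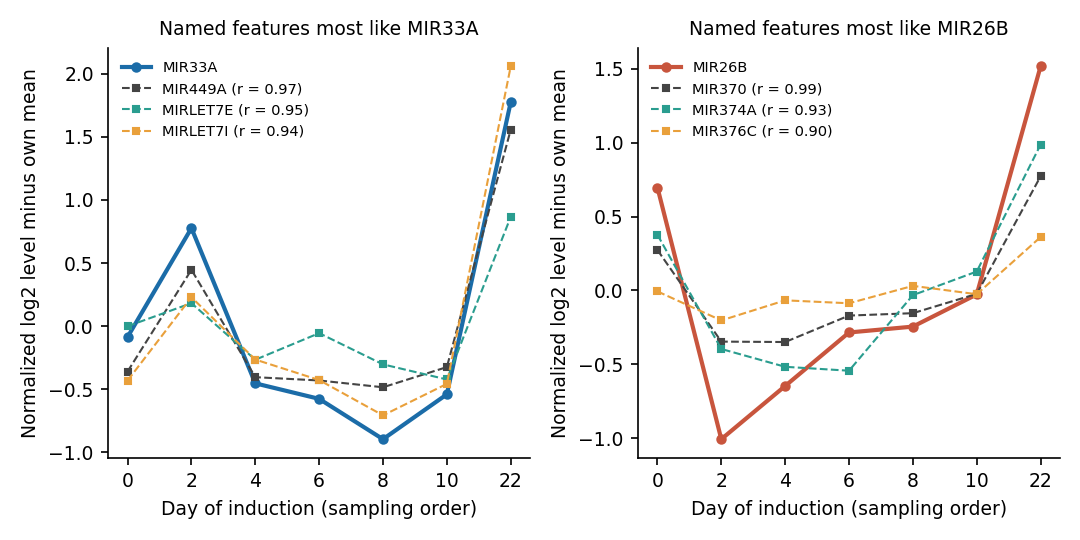
Normalized log2 level minus its own mean over 7 arrays, by day, for MIR33A (left) and MIR26B (right) with the 3 named features of highest Pearson's r to each. On this scale MIR33A and its nearest features are high on days 2 and 22. MIR26B and its nearest features lie below their own means on day 2 and above them on day 22.

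Of 37 microRNAs listed for the control of cholesterol and lipid genes, 8 were measured, and 0 passed the limma trend test in either direction. Of these 3 had positive and 5 negative fitted changes over days 0 to 10, with a median of -0.12 against -0.04 over all features. Beside the members the brightest were MIR370, known for acting on the fatty acid oxidation gene CPT1A, at -0.10 ± 0.33, and MIR29A, known for repressing collagen genes and linked to liver lipid handling, at 2.23 ± 0.67 (SE, adjusted p = 0.960 and 0.313, limma with Benjamini-Hochberg). On day 2 the level was below day 0 in 6 of the 8 and above it in 2, where 98 of all 207 features were below and 109 above, with a median difference of -0.41 against 0.02 over all features. MIR29A was at -1.10 on day 2, MIR370 at -0.62 and MIR96, whose cluster is known as a target of SREBP2, also at -0.62. MIR33A, carried by the SREBP2 gene itself, was at 0.86. These counts and differences are those of the quantile normalized level. On day 2 MIR29A at 111 units, MIR96 at 221 and MIR370 at 297 lay below MIR429, the brightest foreign marker, at 314. Their day 0 signals were 134, 156 and 211 units, so before normalization MIR96 and MIR370 were higher on day 2. MIR26B at 250, MIR10B at 82 and MIR378A at 313 also lay below that marker, MIR378A by little. All 6 counted as below day 0 were thus under it, as was MIR335 at 175, counted as above. MIR10B and MIR378A had 49 and 140 units on day 0, so before normalization they too were higher on day 2. The median feature went from 110 to 255 units.

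Among the 58 named genes that could be placed with a strand, 25 lie inside a protein-coding gene on its own strand, MIR33A and MIR26B among them. Named genes without a strand were left out, so hosted genes can be missing from the 25. Of the 25, 0 passed the limma trend test in either direction, 14 had positive and 11 negative fitted changes, and the median was 0.06. The brightest beside the members were MIR21 in VMP1 at 1.20 ± 0.33, MIR15B in SMC4 at 1.22 ± 0.44 and MIR25 in MCM7 at 0.30 ± 0.41 (SE, adjusted p = 0.313, 0.342 and 0.852, limma with Benjamini-Hochberg). After quantile normalization these 25 features were above day 0 on day 2 in 14 cases and below in 11. That is near the 109 and 98 of all 207 features. MIR26B had the lowest of the differences.

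Of 10 listed red cell microRNAs 4 were measured and 0 passed the trend test, with fitted changes of 1.22 for MIR15B, 0.84 for MIR22, 0.27 for MIR96 and -0.36 for MIR15A in limma. After quantile normalization all 4 were below day 0 on day 2, by a median of -0.31, as were 98 of all 207 features. Before normalization MIR15B, MIR22 and MIR96 were instead higher on day 2. Their signals above the dimmest spot went from 671 to 760, from 93.3 to 176 and from 156 to 221 units. On day 2 MIR22 and MIR96 lay below MIR429, at 314 units. Of the 6 foreign markers 0 passed the trend test, with 2 positive and 4 negative fitted changes and a median of -0.14, and on day 2 the brightest of them, MIR373 and MIR429, were at -0.62 and 0.42 relative to day 0.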

How the data were processed

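MicroRNA was measured on 1-colour Cy3 arrays of K562 cells, 1 per time point, with Ambion isolation and labelling kits per the labels' protocols, which name CD34 cells in the extraction step whereas all other labels name K562. For scanner, software and background correction the sources used here give nothing. What was deposited is linear intensity minus the mean of each array, as the values show: every column averages 0, its zero is unknown, and 67.1% to 87.8% of a column lie at or below 0. Column medians in order of time were -186, -104, -211, -116, -87.9, -66.2, -39.3 and -17.4 units. Scale between arrays and the true zero stay unknown.

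The 621 rows form 207 features of 3 consecutive spots. Of the rows 201 had 1 gene symbol, 0 several and 420 none, and the 67 symbols matched RefSeq (GRCh38.p14) by gene identifier with 0 changed. Sequences of 65 were found there, including both members.

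Values were background corrected with normexp (offset 50), put on a log2 scale, quantile normalized over 7 arrays and averaged over 3 spots, which understates changes of dim features. The trend (order of arrays, given as the change over 5 steps) and curvature were fitted on 6 arrays with limma 3.58.1 in R 4.3.3. They had 4 and 3 residual degrees of freedom and Benjamini-Hochberg adjustment over 207 features at 0.05. Both fits were also run on simulated features with known changes. Their rates of recovery are not given here, so 0 features passing is not shown to mean no change. With 1 array per time point, p-values measure only the scatter between these arrays. The ratio was tested by exact permutation. Day 15 was left out, and day 22 was left out of the tests.

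Named are the members, the 3 named features most like each, and up to 4 of the brightest measured members of each list (lipid, hosted, red cell, foreign). The next most alike feature, MIR373, and MIR96 on day 2 were named after their values were seen. So were MIR342 and MIR23B and, for day 2, MIR378A, MIR335 and MIR10B. The members, lists and tests were chosen with earlier results of these data known. The alternatives were other scalings, offsets of 20 and 100, the dimmest spot set to 50, normalization of 6 arrays, a filter at the median level, the median of spots, array weights, day 22 included, another time scale and each array left out. The fits within days 0 to 6 and without days 0 and 2 were added after seeing the data.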

Additional observations from a re-analysis of the deposited data

How the results depend on the processing

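No alternative brought MIR33A or MIR26B past the threshold in the trend, the curvature or the ratio. In the trend of MIR33A, 20 of 21 alternatives kept the negative sign, but the size ran from -1.73 without normalization to -0.29 without days 0 and 2, and with day 22 included the fitted change was 0.45. For MIR26B it was 0.86 with day 22 included, 0.35 with array weights and 0.95 without days 0 and 2. The curvature of MIR33A was -0.44 without normalization, and that of MIR26B fell from 0.93 to 0.07. In all these cases the cause was not tested.

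Leaving out 1 array gave trends of -1.54 to -0.60 for MIR33A and -0.62 to 1.18 for MIR26B, curvatures of -0.56 to 1.33 and -0.27 to 1.56, and a change of the log2 ratio of -1.20 to 0.50. Features passing then numbered 0 to 5 upwards and 0 to 3 downwards in the trend, and 0 to 4 with ends above and 0 to 6 with ends below in the curvature.

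The trend count downwards was 1 with day 22 included, and it was 1 upwards and 1 downwards with array weights and 6 and 8 without days 0 and 2. The curvature count with ends above was 1 after median centring, after 75th percentile scaling, with an offset of 20, with the filter at the median level and with array weights, which also gave 2 with ends below. No paired analysis was possible because each time point has 1 array. Dim signal limits MIR26B on day 2 most, where it lay below a foreign marker.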

Other observations

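The profiles least like those of the members were looked up after the most alike had been seen, so they are values only. For MIR33A the lowest of 66 correlations was with MIR15B, at r = -0.98 over 7 arrays (Spearman's rho = -0.88) and -0.95 without day 22. MIR15B stood at 9.20, 8.75, 10.11, 9.95, 10.39, 9.95 and 7.80 on days 0, 2, 4, 6, 8, 10 and 22, so it was low on the arrays where MIR33A was high. Without normalization between arrays the same r was 0.23, so the opposition depended on the scaling. For MIR26B the lowest was with MIR18A, at r = -0.79 and rho = -0.61, which became -0.12 without day 22.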
